A study of Mus musculus with 14 samples.

Results

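The Obox homeobox genes and the oogenesins (Oog) are rodent gene families whose transcripts are stored in oocytes. The rows of the oocyte count table followed here are those named Obox1, Obox2, Obox3, Obox5, Obox6, Oog1, Oog2, Oog3 and Oog4, which are 9 of the 24064 genes in the table. RNA-seq was done on single ovulated oocytes, with 14 libraries from 10 oocyte names, and libraries that share an oocyte name were summed. The sample descriptions number such libraries as separate oocytes, also those of C3, D3, D4 and D7, so each n and each statement on 1 oocyte rests on the shared name. The controls were 4 Lsd1/Kdm1a wt/wt oocytes of strain C57BL/6J (wt1, wt3, wt4 and wt5) and 1 flox/flox (f/f) oocyte without cre on a mixed B6;129 background (C3). The 5 mutants (Lsd1/Kdm1a mko/mko, mixed B6;129, named D1, D2, D3, D4 and D7) came from f/f females with a Zp3 promoter-driven cre, which acts in growing oocytes and removes the first exon of Kdm1a, the gene of a histone H3K4 and H3K9 demethylase. Strain separates the wt/wt oocytes from all the others, so the f/f oocyte is the only control that shares the background of the mutants, and genotype and strain cannot be told apart in the wt/wt comparison. The labels do not say which oocytes came from the same female, so the spread between oocytes is the only error available.

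OBOX proteins carry a homeodomain and bind DNA. Obox1, Obox2 and Obox5 are known as maternal genes whose transcripts the oocyte stores, whereas Obox3 is known mainly from the embryo after fertilization, when the maternal and embryonic OBOX factors act in genome activation. Oogenesins belong to the PRAME family of leucine-rich repeat proteins and are known from oocytes and early embryos. Both families expanded by duplication, so a short read from one member can match another, and only reads with a single best alignment were counted here.

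Obox1, Obox2, Obox5 and Obox3 differ little in sequence. A coding stretch of 49 bases (the read length) with a single difference between Obox1 and Obox2 at its centre shows what a counted read has to hold. It lies at chr7:15555234-15555282 in Obox1, chr7:15396917-15396965 in Obox2 and chr7:15757609-15757657 in Obox5, all on the plus strand, and at chr7:15627218-15627266 on the minus strand in Obox3 (GRCm38, GENCODE vM21 transcripts). Capitals mark the bases at which a gene differs from Obox1, and in the Obox1 line the base at which Obox2 differs from it.
Obox1: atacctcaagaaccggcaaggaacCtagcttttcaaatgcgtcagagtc
Obox2: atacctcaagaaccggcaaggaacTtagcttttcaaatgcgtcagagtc
Obox5: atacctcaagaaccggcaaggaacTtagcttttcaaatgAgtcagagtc
Obox3: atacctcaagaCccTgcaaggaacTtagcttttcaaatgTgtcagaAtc
Counted from 1 at the 5′ end of the stretch, with the Obox1 base first, Obox2 has C25T, Obox5 has C25T and C40A, and Obox3 has A12C, G15T, C25T, C40T and G47A. Reads were kept with fewer than 2 mismatches, so a read over this stretch can be placed on Obox1 rather than Obox2 by 1 base alone. Over the whole transcripts, Obox1 and Obox2 differed at 12 of 1459 aligned bases (99.2% identity). Obox5 was 94.2% identical to Obox1 over 1218 aligned bases, Obox3 was 92.1% identical over 1149 bases and Obox6 was 78.3% identical over 1190 bases. The annotated coding length was 612 bases in Obox1, 453 in Obox2, 873 in Obox5, 1005 in Obox3 and 1041 in Obox6. The oogenesin transcripts were 75.2% to 80.5% identical to each other, so reads from them separate more easily.

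The share of each transcript that a unique alignment can reach was measured by searching every 49-base stretch in 141767 annotated transcripts, on both strands and leaving out transcripts of the same locus. In Obox1, 40.1% of the stretches had no exact copy in a transcript of another locus, and 11.5% had no copy within 1 mismatch. Obox2 was the least distinct of the counted members, at 36.3% and 8.36%. The 2 genes shared 856 stretches exactly with each other. Obox3 reached 58.7% and 35.2%, with copies mainly in Obox3 pseudogenes. Of the 46 Obox pseudogenes annotated on chromosome 7, 39 are Obox4 pseudogenes. Obox5 reached 86.3% and 51.8%, its main partner being Obox7, and Obox6 reached 94.8% and 76.8%. Among the oogenesins, Oog4 was almost wholly distinct (99.2% and 97.4%), Oog3 reached 80.0% and 69.3%, and Oog2 reached 54.3% and 29.3% because of its neighbour Gm13084, which holds 770 of its 1869 stretches. Oog1 stood at the other end, with 56 of 1753 stretches (3.19%) free of an exact copy and none free of a copy within 1 mismatch. This search covers annotated transcripts only, so unannotated copies elsewhere in the genome were not analysed here.

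**Figure D1:**
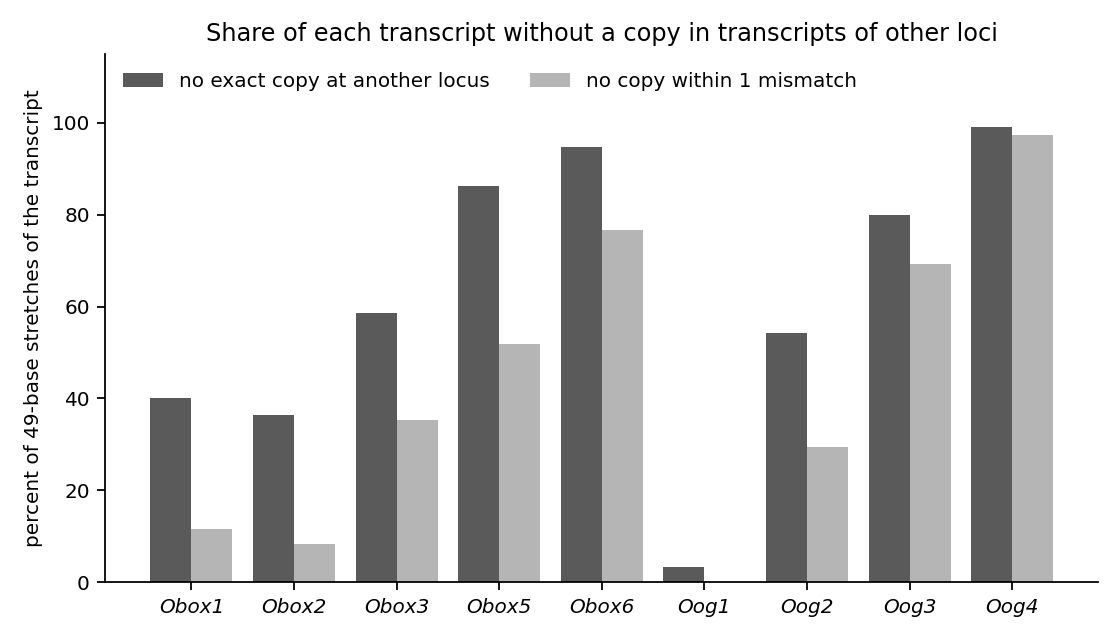
Percent of the 49-base stretches of each member's transcript (y axis) that had no exact copy (dark bars) or no copy within 1 mismatch (light bars) in annotated transcripts of other loci. Oog4, Obox6 and Obox5 stand above 86%, Obox1 and Obox2 near 40% and Oog1 at 3.19%.

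The Obox members lie on chromosome 7, Obox2 at chr7:15388721-15398545, Obox1 at chr7:15546982-15556866 and Obox5 at chr7:15750377-15759800 on the plus strand, and Obox3 at chr7:15625306-15639777 and Obox6 at chr7:15833241-15839678 on the minus strand. Oog4 (chr4:143437164-143450324) and Oog3 (chr4:144157557-144162663) lie on the minus strand of chromosome 4, Oog2 (chr4:144190729-144196934) on its plus strand, and Oog1 on the plus strand of chromosome 12 (chr12:87602695-87608841). GENCODE draws 1 Obox1 isoform across Obox2 with overlapping exons on the same strand, and an Obox3 isoform across Obox1 on the opposite strand without exon overlap. Promoters in the RefSeq table (GRCm38.p6, 250 bases before the annotated start) were found for 8 of the 9 members. The promoters of Obox1 and Obox5 were 95.8% identical over 238 aligned bases. Obox1 and Obox2 were identical over the 153 bases that aligned, Obox3 was 77.7% identical to Obox1 and 76.2% to Obox5, and those of the oogenesins were 77.4% to 83.8% identical. The RefSeq starts of Obox1 and Obox2 lie downstream of the GENCODE starts given above, so the Obox1 windows are upstream of its RefSeq start and within the span of its GENCODE transcript. Short windows are shown for the letters that the 2 families hold in common upstream of their RefSeq starts. The letters TATATAA, in capitals, occurred on either strand in 6 of the 8 promoters and in 3.26% of all 27025 promoters.
Obox5, chr7:15750328-15750357, plus strand: gtttgcagagaTATATAAgggcaggtcttc
Obox3, chr7:15639789-15639818, minus strand: gtttggagagaTATATAAgggcaggtcttc
Oog2, chr4:144190674-144190703, plus strand: cagctgaaaacTATATAAagagtcaaagca
Oog3, chr4:144162664-144162693, minus strand: cagctgaaaatTATATAAagggtcatagca
In these 4 promoters the motif began 30 to 32 bases before the annotated start, and in the other 2 it began 19 bases (Obox1) and 8 bases (Oog1) before it. The longest run that the Obox1 and Oog4 promoters share, AGTGGGTGGAG, did not overlap it and occurred on either strand in 4 of the 8 promoters and in 0.181% of all promoters, and is shown in capitals in 3 of them.
Obox1, chr7:15547177-15547206, plus strand: aatattgcaAGTGGGTGGAGccagcgtgaa
Obox5, chr7:15750278-15750307, plus strand: aatattgcaAGTGGGTGGAGccaacgtgaa
Oog3, chr4:144162744-144162773, minus strand: atatgagcaAGTGGGTGGAGactcagtttt
These runs of letters were chosen after the promoters had been read, so these shares are descriptions. The TATATAA run did not occur in the Oog4 and Obox2 windows, and AGTGGGTGGAG did not occur in the Oog1, Oog2, Obox2 and Obox3 windows. No match says only that the letters are not in these windows.

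Totals ranged from 1375187 to 6928548 counts per oocyte, both extremes being controls. Counts were scaled to CPM (counts per 1e6) with TMM factors, which ran from 1.30 to 1.37 in the wt/wt oocytes, 0.651 in C3 and 0.779 to 0.952 in the mutants, and the choice of scaling moves the wt/wt oocytes against the others. Kdm1a was at 12.1 to 38.7 CPM in the wt/wt oocytes, 149 CPM in C3 and 0 to 4.99 CPM in the mutants. Its mutant-to-control log2 fold change was −5.02 (SE 0.86, adjusted p = 0.00110 in edgeR's quasi-likelihood test), counted over the whole gene. All 20 oocyte markers had counts, and their summed level was 23057 to 44553 CPM in the wt/wt oocytes, 91714 CPM in C3 and 74239 to 157103 CPM in the mutants, so that C3, the only control of the mutants' strain, lay inside the mutant range. Of these markers, 12 were higher and 0 lower in the mutants in edgeR and in DESeq2 (13 and 0 at an unadjusted p below 0.05), with a median log2 fold change of 2.02. Of 16 cumulus and granulosa cell markers, 8 (Amh, Fshr and Foxl2 among them) were at 0 in every oocyte. The summed level of the 16 was 26.9 to 80.7 CPM in controls and 85.9 to 156 CPM in mutants. The level was mostly Cyp19a1 except in wt3 and wt5, where 21.6 of 42.3 CPM and 18.4 of 26.9 CPM came from the other markers. Without Cyp19a1 it was 13.1 to 27.6 CPM in the wt/wt oocytes, 8.44 CPM in C3 and 6.70 to 9.47 CPM in the mutants, so that C3 lay with the mutants below every wt/wt oocyte. The part of these differences in the results on the Obox and Oog genes was not tested.

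Of the 9 members, 8 passed the filter on low counts, and 1 of these 8, Obox3, was called lower in the mutants. A call needs a log2 fold change of 1 or more in either direction with an adjusted p below 0.05. In edgeR 0 members were called higher, with 0 also at an unadjusted p below 0.05 and 0 in DESeq2. At an unadjusted p below 0.05 in edgeR 2 members (Obox3 and Obox6) were lower, and DESeq2 called 1 lower. Over all 9198 genes tested, 25.9% were called by the edgeR rule, 14.7% higher and 11.2% lower, against 1 of 8 here. An unadjusted p below 0.05 in edgeR was reached by 3625 of the 9198 genes, against 2 of 8 here. The abundant maternal members Obox1, Obox2 and Obox5 and the oogenesins Oog2, Oog3 and Oog4 overlapped between controls and mutants. The plot of log2 CPM in each oocyte shows this for the 8 members with counts.

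**Figure D2:**
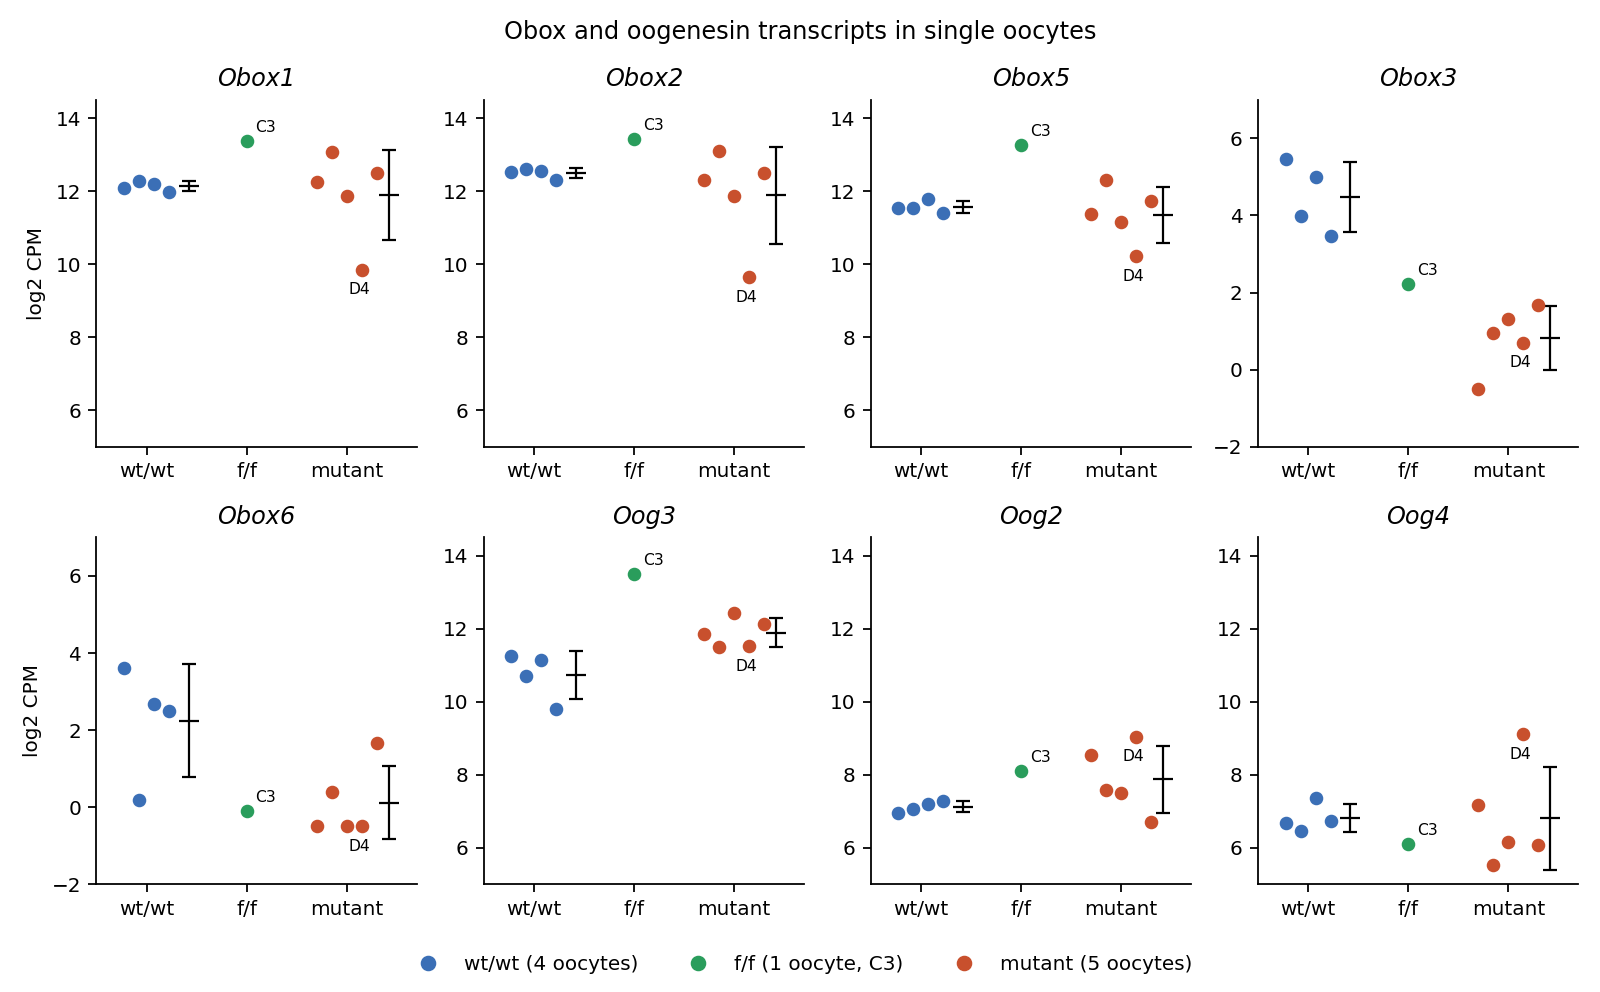
Level of each member in every oocyte (y axis, log2 CPM with a prior count of 2, with a lower range for Obox3 and Obox6), with wt/wt, f/f and mutant oocytes as points and the mean ± SD of groups of more than 1 oocyte as black bars. Obox1 and Obox2 are tight in the wt/wt oocytes and spread in the mutants, where D4 is lowest, and Obox3 is below every control in all 5 mutants.

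Obox3 was the only member called with all 5 controls. It was counted 78, 35, 76 and 23 times in wt1, wt3, wt4 and wt5, 18 times in C3 and 0, 2, 5, 6 and 5 times in D1, D2, D3, D4 and D7. On the CPM scale this was 24.9 ± 15.0 (SD, n = 4) in the wt/wt oocytes, 4.00 in C3 and 1.28 ± 0.94 (SD, n = 5) in the mutants. All 5 mutants were below all 5 controls, which held in this direction for 8.09% of the genes tested. This order did not hold for the share of the Obox counts, where C3 (0.0127%) was below D3 (0.0183%), D4 (0.0314%) and D7 (0.0167%). It also did not hold for single libraries. All 5 counts of D3 came from 1 of its 2 libraries (5.38 per 1e6 counts of the total, against 0 in the other), and this library and 1 of D7 (3.04) were above both libraries of C3 (2.56 and 2.64). The log2 fold change in mutants was −3.97 (SE 0.76, adjusted p = 0.00202 in edgeR's quasi-likelihood test), a level 15.7-fold lower. C3 was the control nearest to the mutants and also lay below all 4 wt/wt oocytes, by 2.24 on the log2 scale from their mean. Against the wt/wt oocytes alone the log2 fold change was −4.23 (adjusted p = 0.000392), and against C3 alone it was −1.59 (adjusted p = 0.512). With C3 alone the control is 1 oocyte, the spread comes from the mutants, and 3 of 8811 genes were called, so a missed call there says nothing about Obox3 or any other member. Strain and genotype cannot be told apart in the difference from the wt/wt oocytes.

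Obox6, the most divergent Obox member and like Obox3 a gene of the preimplantation embryo, was rarer still. It was counted 21, 1, 14 and 11 times in wt1, wt3, wt4 and wt5, 1 time in C3, and 0, 1, 0, 0 and 5 times in D1, D2, D3, D4 and D7. Its level was 5.67 ± 4.59 CPM (SD, n = 4) in the wt/wt oocytes, 0.222 CPM in C3 and 0.620 ± 1.08 CPM (SD, n = 5) in the mutants. The groups overlapped, with D2 and D7 above wt3 and C3. Its log2 fold change was −2.96 (SE 1.25, adjusted p = 0.0878), short of the threshold, and it passed it in several alternatives, such as library totals (−3.50, adjusted p = 0.0382) and wt/wt alone as control (−3.31, adjusted p = 0.0389). The floor of 3 counts used here corresponds to 0.456 to 1.83 CPM, and wt3, C3 and 4 of the 5 mutants had fewer counts than that. All 5 counts of D7 came from 1 of its 2 libraries, and without D7 the log2 fold change was −5.04 (adjusted p = 0.0217). The cumulus and granulosa markers other than Cyp19a1 were also lower in C3 and the mutants (6.70 to 9.47 CPM) than in the wt/wt oocytes (13.1 to 27.6 CPM), and their part in the Obox3 and Obox6 values was not tested.

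**Figure D3:**
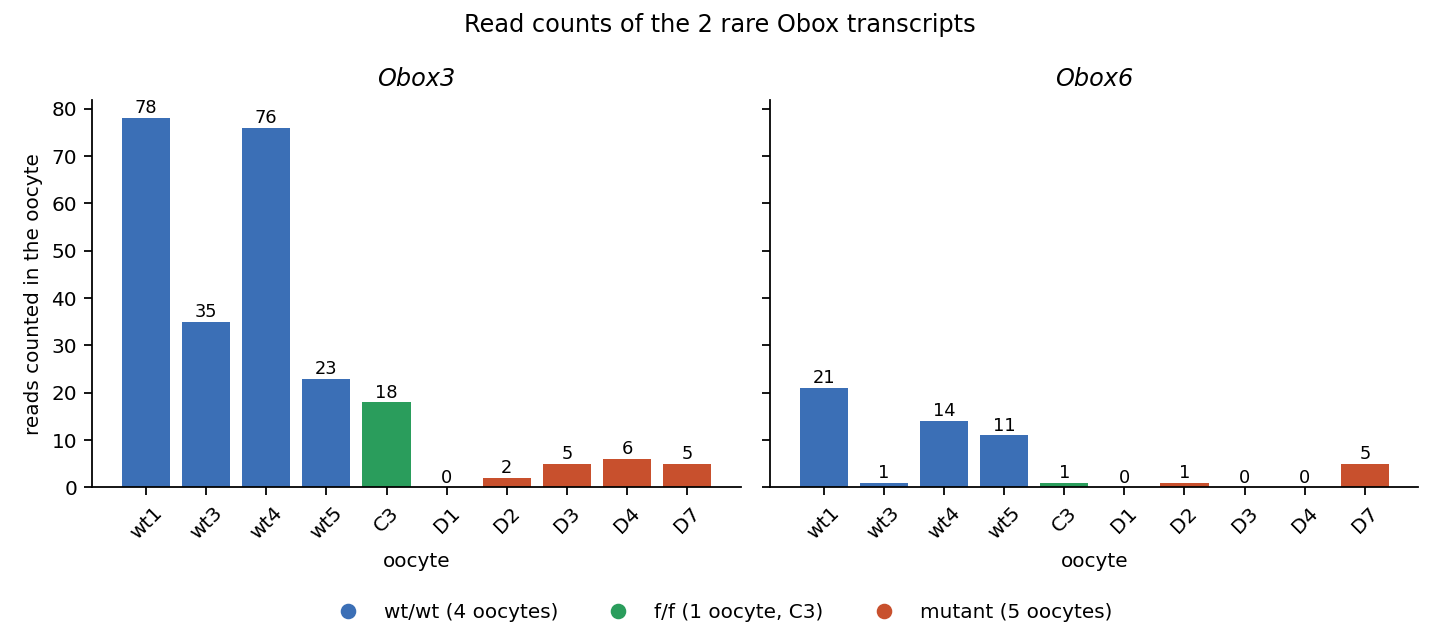
Reads counted on Obox3 and Obox6 (y axis) in each oocyte (x axis), with bars coloured by group. Obox3 has 23 to 78 reads in the wt/wt oocytes, 18 in C3 and 0 to 6 in the mutants, and Obox6 has 1 read in C3 and at most 5 in a mutant.

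The maternal genes Obox1, Obox2 and Obox5 carried more than 99% of the Obox counts in every oocyte. Obox1 was at 4370, 4947, 4701 and 3993 CPM in wt1, wt3, wt4 and wt5 and at 10627 CPM in C3. In the mutants it was at 4887, 8552, 3695, 919 and 5742 CPM in D1, D2, D3, D4 and D7. The wt/wt oocytes lay within 1.24-fold of each other, the mutants spanned 9.30-fold, and C3 was above them all. Without D4 the other 4 mutants spanned 2.31-fold. The log2 fold change of Obox1 was −0.27 (SE 0.49, adjusted p = 0.719) and took the other sign with wt/wt alone as control (0.12, adjusted p = 0.860) and without D4 (0.0092, adjusted p = 0.990).

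Obox2, like Obox1, was highest in C3 and D2 and lowest in D4. It was at 5826, 6216, 6029 and 5024 CPM in wt1, wt3, wt4 and wt5, 11015 CPM in C3 and 5028, 8786, 3755, 794 and 5760 CPM in D1, D2, D3, D4 and D7. Its log2 fold change was −0.50 (SE 0.49, adjusted p = 0.474). Obox5 was lower, at 2976, 2979, 3548 and 2722 CPM in wt1, wt3, wt4 and wt5, and again highest in C3, at 9754 CPM. In the mutants it was at 2664, 5011, 2257, 1192 and 3393 CPM in D1, D2, D3, D4 and D7. Its log2 fold change was −0.60 (SE 0.46, adjusted p = 0.353). The control and mutant ranges overlapped for all 3 genes, and with these standard errors a change of 1 on the log2 scale would not be resolved.

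How high C3 stands depends on the scaling. Per 1e6 counts of the library total, Obox1 was at 6909 in C3 against 5437 to 6587 in the wt/wt oocytes, and Obox2 in C3 (7161) lay within the wt/wt range of 6840 to 8278. Obox5 remained above, at 6341 against 3706 to 4586. On the same scale the mutants were at 873 to 6960 for Obox1, 754 to 7151 for Obox2 and 1131 to 4078 for Obox5. The log2 fold changes with library totals were −0.61 (adjusted p = 0.247), −0.88 (adjusted p = 0.0975) and −0.86 (adjusted p = 0.0614) in edgeR, all short of the threshold. Over all genes tested, that scaling moved the median from 0.17 to −0.23, and the share of calls that were higher in mutants from 56.8% to 36.6%.

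The mutant oocyte D4 had the lowest Obox1, Obox2 and Obox5 of all 10 oocytes and the highest Oog2 and Oog4. The 5 Obox genes together took 0.276% of its counts, against 0.840% to 1.82% in the other mutants, 1.60% to 1.89% in the wt/wt oocytes and 2.04% in C3. The Oog genes together took 0.380% of the counts of D4, inside the range of the other mutants (0.256% to 0.497%), since Oog3 in D4 was not high. Within the Obox counts of D4, Obox5 made up 41.0% and Obox2 27.3%, while Obox5 made up 31.1% in C3 and no more than 24.8% in any wt/wt oocyte. D4 was sequenced as 2 libraries of 3741331 and 3184745 counts, and per 1e6 counts of the total they gave 962 and 767 for Obox1, 530 and 468 for Oog2 and 564 and 481 for Oog4. D4 was the lowest for Obox1 and the highest for Oog2 and Oog4 in both libraries.

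The ratio of Obox1 to Obox2 counts does not depend on depth or scaling. It was 0.750, 0.796, 0.780 and 0.795 in wt1, wt3, wt4 and wt5, 0.965 in C3, and 0.972, 0.973, 0.984, 1.16 and 0.997 in D1, D2, D3, D4 and D7. All 5 mutants were above all 5 controls, but the larger step lay between the wt/wt oocytes and C3, which was next to the mutants. The 2 libraries of C3 gave 0.949 and 0.978, and the libraries of the mutants 0.971 to 1.18. The step thus fell between the strains as labelled, and with 1 f/f oocyte strain and genotype cannot be told apart. No test was run on this ratio, and the share of other gene pairs with such an order was not computed. The 2 genes differ at 12 of 1459 aligned bases, and the part of read placement in the ratio was not tested. The ratio of Obox5 to Obox1, by contrast, overlapped between groups, at 0.602 to 0.755 in the wt/wt oocytes, 0.918 in C3, 1.30 in D4 and 0.545 to 0.611 in the other mutants. The count ratios of Oog4 to Oog2 and of Oog3 to Oog2 overlapped between groups as well.

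**Figure D4:**
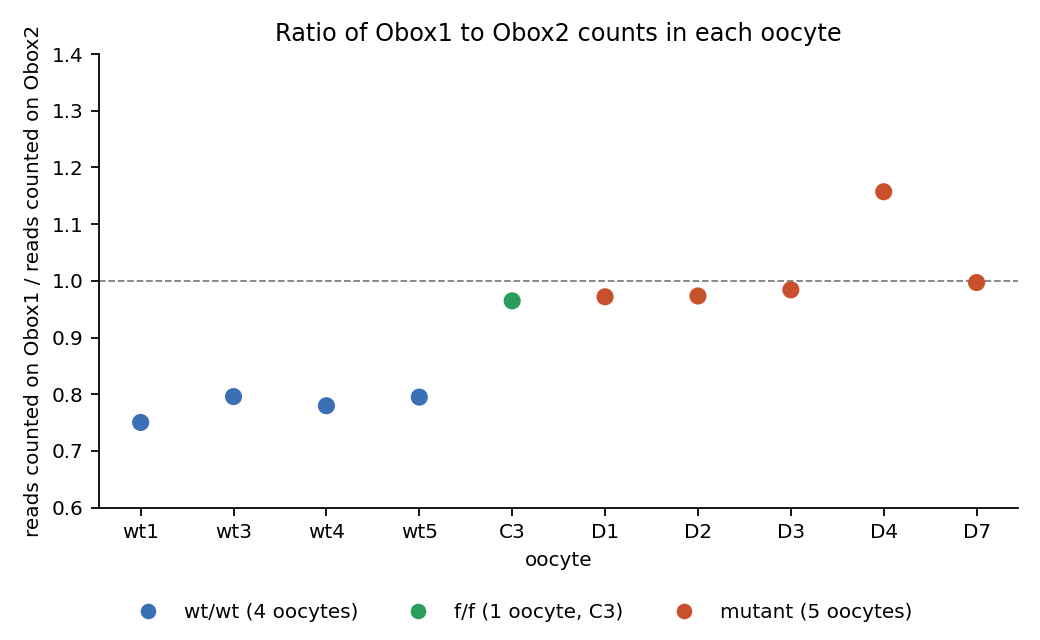
Reads counted on Obox1 divided by reads counted on Obox2 (y axis) in each oocyte (x axis), coloured by group, with the dashed line at a ratio of 1. The 4 wt/wt oocytes lie between 0.750 and 0.796, C3 at 0.965 and the mutants between 0.972 and 1.16.

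Among the oogenesins, Oog3 carried 73.0% to 97.1% of the family's counts. It was at 2458, 1683, 2270 and 895 CPM in wt1, wt3, wt4 and wt5, at 11656 CPM in C3 and at 3737, 2913, 5495, 2923 and 4445 CPM in D1, D2, D3, D4 and D7. Every mutant was above every wt/wt oocyte and below C3, so the mutants lay between the 2 kinds of control. With all 5 controls the log2 fold change was 0.041 (SE 0.56, adjusted p = 0.964 in edgeR's quasi-likelihood test). Against the wt/wt oocytes alone Oog3 was called higher, by 1.12 on the log2 scale (adjusted p = 0.0200), and against C3 alone the value was −1.55 (adjusted p = 0.163). With wt/wt alone and library totals, an alternative added after the values were seen, it was 0.50 (adjusted p = 0.267), and the groups then overlapped at 1219 to 3234 per 1e6 counts in wt/wt and 2371 to 4755 in the mutants. The direction of Oog3 thus depended on which control was used, and its call on the scaling. In the fit with wt/wt alone and TMM, 2885 of 9166 genes were called, 1725 of them higher. The median log2 fold change over all genes of that fit was 0.28. The share of genes with every mutant above every wt/wt oocyte was not computed.

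Oog2 was at 123, 134, 146 and 155 CPM in wt1, wt3, wt4 and wt5, 274 CPM in C3 and 372, 190, 182, 528 and 103 CPM in D1, D2, D3, D4 and D7. Of the 5 mutants, 4 were above the wt/wt oocytes and D7 was below them, with C3 inside the mutant range. Its log2 fold change was 0.73 (SE 0.43, adjusted p = 0.216). Oog4 was at 103, 87.2, 165 and 106 CPM in wt1, wt3, wt4 and wt5, 68.2 CPM in C3 and 143, 45.7, 70.9, 554 and 66.8 CPM in D1, D2, D3, D4 and D7. Its log2 fold change was 0.74 (SE 0.57, adjusted p = 0.358), and without D4 it was −0.36 (adjusted p = 0.538). Oog2 and Oog4 therefore gave no difference between genotypes beyond the spread of the mutants.

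Oog1 had 0 counts in all 14 libraries. A count of 0 allows up to 3 counts per oocyte, or 0.456 to 1.83 CPM, and this limit covers counting error only. As 56 of its 1753 stretches are unique, the limit applies to what unique alignment can see and not to the transcript. Its near copy Gm2042, on which 1663 of the 1753 stretches recur, differed from Oog1 at 3 of 1801 aligned bases. Gm2042 was counted, at 20.2 to 76.9 CPM in the wt/wt oocytes, 1071 CPM in C3 and 95.7 to 177 CPM in the mutants, with a log2 fold change of −0.95 (SE 0.83, adjusted p = 0.415). Like Oog3, Gm2042 was highest in C3 and lowest in the wt/wt oocytes, with the mutants between.

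**Figure D5:**
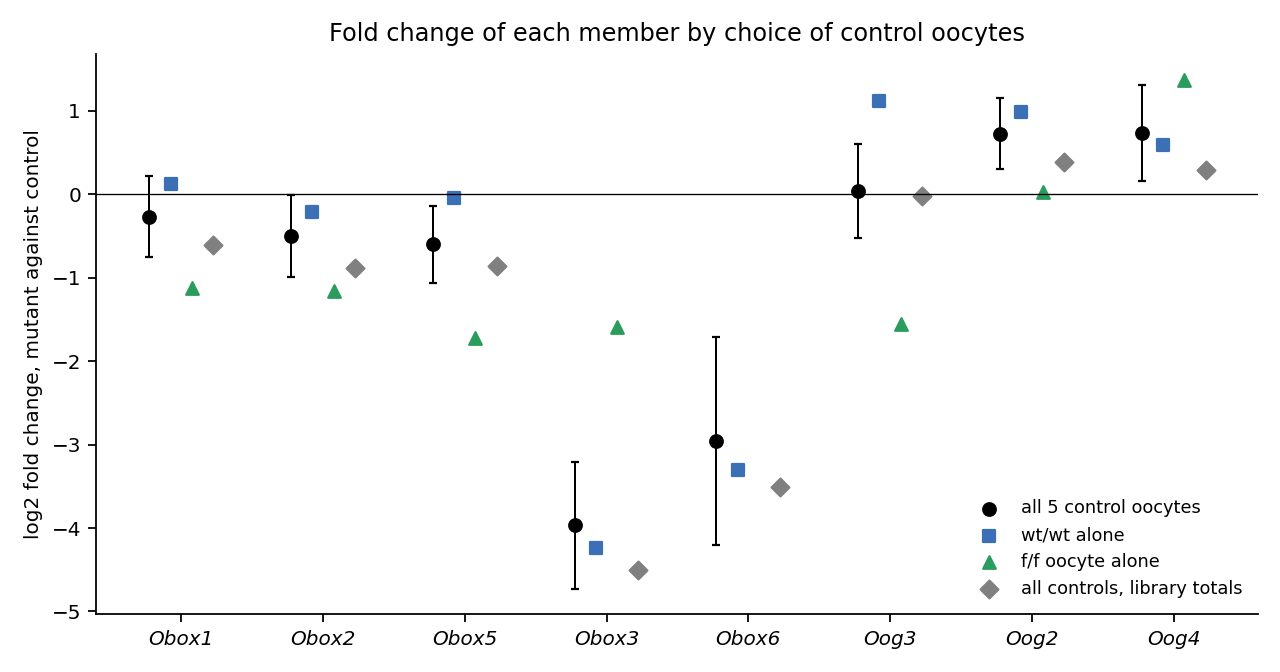
Log2 fold change of mutant against control (y axis) for the 8 members tested, with all 5 controls (black circles, bars ± SE), wt/wt oocytes alone (blue squares), the f/f oocyte alone (green triangles, not fitted for Obox6) and library totals in place of TMM (grey diamonds). Obox3 is at −3.97, −4.23, −1.59 and −4.50 in that order, and Oog3 changes sign between 1.12 and −1.55.

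Levels between members were compared per kilobase of transcript. In the wt/wt oocytes the order was Obox2 (3957 ± 360 CPM per kb, SD, n = 4), Obox1 (2978 ± 274), Obox5 (1669 ± 191), Oog3 (979 ± 377), Oog2 (72.7 ± 7.35), Oog4 (58.2 ± 17.2), Obox3 (15.5 ± 9.38) and Obox6 (4.22 ± 3.42). The ranges of Oog2 (64.0 to 80.7) and Oog4 (44.0 to 83.2) overlapped, as did those of Obox3 and Obox6, while the other neighbours in this order were separate in the wt/wt oocytes. In the mutants the ranges of Obox2 (544 to 6022), Obox1 (608 to 5656), Oog3 (1562 to 2946) and Obox5 (651 to 2737) all overlapped. Counting only the uniquely alignable length, the mean over control oocytes rose from 4676 to 13325 CPM per kb for Obox2, from 3788 to 9757 for Obox1, from 86.8 to 164 for Oog2 and from 12.9 to 22.7 for Obox3. On that length the overlaps in the wt/wt oocytes changed. Oog2 (121 to 152) was separate from Oog4 (45.4 to 85.9), and Obox3 (11.3 to 47.2) from Obox6 (0.351 to 9.44), while Oog4 and Obox3 overlapped.

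The genes whose profile over the 10 oocytes was nearest to a member were found by the root mean square distance of centred log2 CPM. Obox1 and Obox2 were each other's nearest gene among all 9198, at a distance of 0.195. They share 1214 stretches within 1 mismatch, and whether reads of one were counted on the other was not tested. Obox1 was next nearest to Tnk2 (0.295) and Mknk1 (0.313), and Obox2 to Mknk1 (0.280) and Gpn2 (0.335). Obox5 was nearest to Jarid2 (0.248), Papd7 (0.283) and Smad3 (0.307). Oog2 was nearest to its near copy Gm13084 (0.216), followed by Kctd3 (0.226) and Oas1e (0.304), a member of another multicopy oocyte family. Oog3 was nearest to Orc6 (0.290), Ctage5 (0.297) and Jag1 (0.322), and 0 of these 3 remained among its nearest when C3 was left out. Oog4 was nearest to Ddias (0.333), Clcn5 (0.369) and Osbpl9 (0.394), of which Clcn5 had a mean of 0.775 CPM, near the floor of 3 counts. The rare genes had no close partner, with Egf (0.477), Zfp942 (0.572) and Hmgcll1 (0.612) for Obox3 and Fkbp4 (0.616), Mmaa (0.620) and Kifc1 (0.651) for Obox6. When C3 was left out, 1 of the 3 genes remained for Obox3 (Egf), 3 of 3 for Oog4 and 2 of 3 for each other member but Oog3. These distances are over oocytes that share the same libraries and scaling, and they describe likeness of levels.

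Related families were counted in the same fit. Of 18 tested genes of the PRAME family outside the oogenesins, 0 were called higher and 5 lower in edgeR, with a median log2 fold change of −0.83 against 0.17 for all genes tested. At an unadjusted p below 0.05 there were 2 higher and 6 lower, and DESeq2 called 2 higher and 5 lower. The largest change was in Pramel5, at 4.50 to 30.4 CPM in the wt/wt oocytes, 0 in C3 and 0 to 0.997 CPM in the mutants (log2 fold change −5.57, SE 1.35, adjusted p = 0.00799). C87499, the PRAME gene with the highest count, was at 2264 CPM on average in the wt/wt oocytes, 4946 CPM in C3 and 1713 ± 448 CPM in the mutants (SD, n = 5), and did not pass the test (−0.71, SE 0.37, adjusted p = 0.160). Of 13 other homeobox genes tested, 2 were higher and 1 lower, with a median of 0.42. At an unadjusted p below 0.05 there were 2 higher and 4 lower, and DESeq2 called 2 higher and 2 lower. Lhx8, which acts in early oocyte development, rose from 20.6 CPM in controls to 185 CPM in mutants (log2 fold change 3.17, SE 0.58, adjusted p = 0.00161), with no overlap. Crxos, a homeobox gene related to Crx, was at 10.4 to 30.9 CPM in the wt/wt oocytes, 0 in C3 and 0 to 1.50 CPM in the mutants (−5.76, SE 1.28, adjusted p = 0.00492). Satb1 had the highest count of this list and did not pass (0.60, SE 0.39, adjusted p = 0.271).

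Pramel5 and Crxos thus shared with Obox3 and Obox6 a low or absent signal in C3 as well as in the mutants, a pattern noticed after the values were seen, in which strain and genotype cannot be told apart. Of 16 tested genes of other multicopy oocyte families, 4 were higher and 0 lower (median 0.75), the largest change being in Oas1h (2.16, SE 0.57, adjusted p = 0.0121). Tcl1, with the highest count of these, was at 0.75 (SE 0.47, adjusted p = 0.246), and in this list DESeq2 called 4 higher and 1 lower, as did an unadjusted p below 0.05. Of 6 tested genes known from the embryo just after fertilization, 0 were higher and 1, Sp110, was lower (−2.02, SE 0.64, adjusted p = 0.0298), with a median of 0.12 (1 higher and 1 lower at an unadjusted p below 0.05, 0 and 1 in DESeq2), and Zfp750, the most counted, was at 0.23 (SE 0.33, adjusted p = 0.638). These counts of calls stand beside 25.9% of all genes tested. The counts at an unadjusted p below 0.05 stand beside 3625 of the 9198 genes in edgeR.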

How the data were processed

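Single ovulated mouse oocytes were lysed and their poly(A) RNA amplified by a published single-cell method that covers the transcript end near the poly(A) tail. According to the study's methods, the authors filtered 49-base single-end reads, aligned them to mm10 with TopHat2 2.0.6, kept unique best alignments with fewer than 2 mismatches and counted reads per RefSeq gene with HTSeq (0.5.3p9 in the processing notes, another version in the methods). The deposited values are these raw counts per gene and library, with no normalization. Libraries of the same oocyte name were summed, which gave 4 wt/wt, 1 f/f and 5 mutant oocytes. The top 60% of genes with a count were kept and tested with edgeR 4.0.16 (TMM, quasi-likelihood test, Benjamini-Hochberg) in R 4.3.3, wt/wt and f/f together as control, as in the study. Alternatives included DESeq2 1.42.0, other scalings, filters and controls, thinning and leaving out each oocyte. Transcripts were GENCODE vM21, aligned with Biopython.

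Genes named were the 9 members, the called gene with the largest change in each direction and the gene with the highest count of each related list, the 3 nearest genes by profile, and Kdm1a, while other list genes are named after their values were seen. The members and all lists were chosen with earlier results of these data known. Column names were matched to the labels, and 0 columns were left out.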

Additional observations from a re-analysis of the deposited data

Results flagged for a closer look

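Among the control oocytes, C3 stood apart from the 4 wt/wt oocytes in 4 members, with its gap to the next oocyte divided by the range of the 5 controls on the log2 CPM scale above 0.71, the 95% critical value for 5 samples. The quotient was 0.781 for Obox1, 0.729 for Obox2, 0.792 for Obox5 and 0.711 for Oog2. In all, 24 sets of oocytes were examined, of which chance flags about 1 in 20. C3 is the only f/f oocyte, so these values set 1 genotype and strain beside another and do not single out a library of one kind. With library totals in place of TMM, a choice made after seeing the data, the quotients at the top of the controls were 0.199, 0.316, 0.604 and 0.405, and for Obox2 and Oog2 the highest control was then a wt/wt oocyte.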

How the results depend on the processing

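Each log2 fold change and count of calls was recomputed under the alternatives, and the cause of each shift was not tested unless the alternative itself uses fewer samples or genes. With all controls, 2384 genes were called, 1353 higher and 1031 lower. DESeq2 called 2802. Every library as its own sample with a replicate block on the library number gave 966 (592 higher, 374 lower), library totals gave 1668 lower, wt/wt alone with library totals (added after seeing the data) gave 2151 lower, and f/f alone, where 1 control is assumed to vary like the mutants, gave 3 of 8811 (0 higher, 3 lower), so calls missed with f/f alone say nothing about a gene. Leaving out 1 oocyte gave 1607 (without D1) to 2885 (without C3) calls, of which 898 to 1725 were higher. Control and mutant oocytes that hold libraries of the same number showed little common deviation across genes (r = −0.0925 to 0.101). This cannot show whether samples shared a female or a batch, so pairing of the samples remains unknown. Obox3 was at −1.59 with f/f alone and was called in the 20 other alternatives that tested it (edgeR's expression filter removed it). The alternatives reuse the same oocytes and are not independent. Leaving out C3 is the same fit as wt/wt alone, and those with every library count libraries of 1 oocyte name as separate samples. Obox1 changed sign with wt/wt alone (0.12) and ranged from −0.57 to 0.12 when 1 oocyte was left out. Obox6 passed the threshold with library totals (−3.50), 1 library per oocyte (−4.74), wt/wt alone (−3.31), wt/wt alone with library totals (−3.86) and without D7 or C3, and ranged from −5.04 to −2.48 when 1 oocyte was left out. Obox6 was not tested without wt1, where it had its highest count, with f/f alone or with edgeR's expression filter. Oog3 changed sign with library totals (−0.019), every library (−0.41), 1 library per oocyte (−0.034) and f/f alone (−1.55), passed with wt/wt alone (1.12), and ranged from −0.18 to 1.12 when 1 oocyte was left out. Oog4 changed sign under the replicate block (−0.47) and ranged from −0.36 (without D4) to 0.97. Obox2, Obox5 and Oog2 stayed short of the threshold in all 22 alternatives each and changed no sign, but came close to 0, with Obox2 from −1.16 (f/f alone) to −0.22 (without D4), Obox5 from −1.72 (f/f alone) to −0.039 (wt/wt alone) and Oog2 from 0.022 (f/f alone) to 0.99 (wt/wt alone), and 0.36 without D4. Calls among PRAME genes (5) became 8 with library totals, 2 under the replicate block, 8 with wt/wt alone, 0 with f/f alone, 11 with wt/wt alone and library totals, and 3 to 8 without 1 oocyte. Calls among other homeobox genes (3) became 6 with library totals, 6 with every library, 0 with f/f alone and 7 with wt/wt alone and library totals. Calls among other multicopy families (4) became 2 with 1 library per oocyte, 0 under the block, 9 with wt/wt alone, 0 with f/f alone, and 1 to 9 without 1 oocyte. The call on a gene of the early embryo (1) became 0 with edgeR's expression filter, 2 with every library, 0 under the block, 0 with f/f alone, 0 after thinning to the lowest total, and 0 to 1 without 1 oocyte. On uniquely alignable length, levels in controls were 9757 CPM per kb for Obox1, 13325 for Obox2 and 164 for Oog2, and 22.7 for Obox3. Thinned to the lowest total, Obox3 kept its call (−4.73, adjusted p = 0.00301 in edgeR) and Obox6 stayed short of it (−3.03, adjusted p = 0.0615).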
